A study of Drosophila melanogaster with 55 samples.

Results

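Repeat RNA was compared between the 2 control groups of a study of SetDB1 (Eggless) in Drosophila melanogaster embryos: embryos with a knockdown of w, and embryos carrying SetDB1 WT. The members were every repeat name in the RNA count tables of these 2 groups, which comprised 6 of the 55 samples of the series and held 9263 names. Per the labels, the w knockdown embryos carried GFP-SetDB1 and nos-Gal4 together with w RNAi, and the other controls carried SetDB1 WT with no driver and no hairpin listed. The nos-Gal4 driver acts in the germ line, and w (white) encodes a transporter of eye pigment precursors, so its hairpin serves as a control. Each group had 3 libraries of stage 5 embryos, and total RNA was harvested from single embryos, per the labels' protocols. The other 2 RNA groups, of 3 libraries each, had related backgrounds. Gcn5 knockdown embryos carried GFP-SetDB1, nos-Gal4 and Gcn5 RNAi, and SetDB1 F578A embryos carried the mutant protein over the CyO balancer. The line, its transgenes and any batch of library making went together with the group, so they cannot be told apart. Nothing in the labels says that the 3 libraries of a group came from separate crosses, so p-values measure the spread between these libraries only. The tables list no genes, so neither the level of w nor that of SetDB1 could be checked, and the labelled stage could not be set against marker genes.

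Transposable elements are DNA sequences that move within the genome. LTR retrotransposons (the Gypsy, Copia and Pao superfamilies) and LINEs copy themselves through RNA, whereas DNA elements move mostly by cut and paste. In flies, piRNAs deposited by the mother and H3K9 methylation by SetDB1 hold many of them silent in the germ line, and lines differ in the copies they carry. HETA, TAHRE and TART are LINEs that maintain fly telomeres in place of a telomerase. The tables pool all annotated copies of a name, and related elements that share sequence could have exchanged reads, so a value belongs to a name and not to a copy.

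Of the 9263 names, 9028 were simple repeats (short tandem motifs) and 205 were transposable elements, namely 132 LTR, 40 LINE, 31 DNA and 2 Helitron names. At least 1 count was found for 5097 names, and 2257 passed the filter on low counts, among them 167 transposable elements. The w knockdown libraries held 2325296, 1923426 and 2349956 counts on repeats, against 2422517, 3209030 and 2543770 counts in the SetDB1 WT libraries. Every w knockdown library thus held fewer repeat counts than every SetDB1 WT library. Simple repeats took most of these counts, with 81.6% ± 3.65 in w knockdown and 84.8% ± 1.36 in SetDB1 WT (SD, n = 3 each). Ribosomal RNA names took 6.05%, 9.17% and 2.11% of the counts in w knockdown, against 2.97%, 1.63% and 1.35% in SetDB1 WT, and the groups overlapped. Total counts on repeats, which need not follow sequencing depth, moved with the groups, and their part in the results below was not tested.

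Transposable elements made up a smaller share of repeat RNA in w knockdown than in SetDB1 WT embryos. They took 2.60%, 3.00% and 3.16% of the counts in the w knockdown libraries, against 4.66%, 3.31% and 4.00% in the SetDB1 WT libraries. The groups did not overlap, and the mean share was 2.92% ± 0.289 in w knockdown and 3.99% ± 0.677 in SetDB1 WT (SD, n = 3 each). The difference of −1.07 percentage points had p = 0.1 in a two-sided exact permutation test, the smallest p that 3 against 3 libraries can give. LTR elements accounted for most of it, with 1.98% ± 0.164 in w knockdown and 2.85% ± 0.504 in SetDB1 WT. LINEs stood at 0.367% ± 0.0418 in w knockdown and 0.511% ± 0.0523 in SetDB1 WT, again without overlap between libraries. DNA elements overlapped between the groups, at 0.261% ± 0.0498 in w knockdown and 0.317% ± 0.0536 in SetDB1 WT (exact permutation p = 0.3). Among families, shares did not overlap for Gypsy, Pao, the telomere elements and the LINEs outside the larger families. Pao elements took 0.886%, 0.661% and 0.878% of counts in w knockdown, against 1.38%, 1.18% and 1.30% in SetDB1 WT. A family share can rest largely on 1 name. The internal part of roo, a Pao name, alone held 21.7% of all element counts in w knockdown and 27.5% in SetDB1 WT. Of 15 Pao names tested, 10 had a log2 fold change below 0 and 5 above 0. Telomere elements took 0.138%, 0.154% and 0.159% in w knockdown, against 0.218%, 0.231% and 0.225% in SetDB1 WT. Of the 4 telomere names, TART had the most counts, with 2616, 2106 and 2808 in w knockdown, followed by TART_B1 with 263, 645 and 706. Copia elements had nearly the same mean share, 0.266% ± 0.123 in w knockdown and 0.272% ± 0.134 in SetDB1 WT, with a wide spread between libraries of either group.

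**Figure D1:**
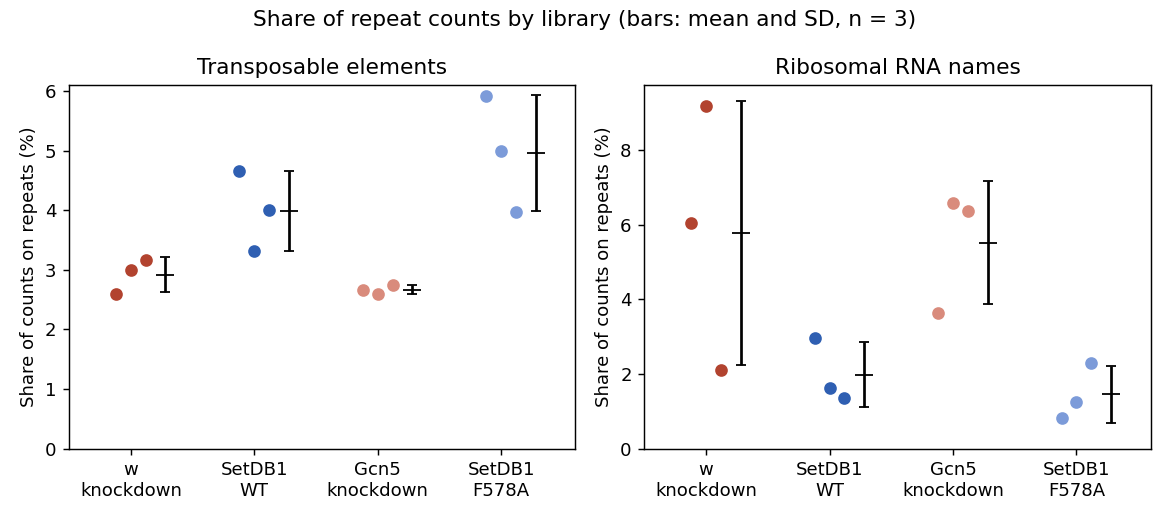
Share of repeat counts on transposable elements (left, %) and on ribosomal RNA names (right, %) in each RNA library. Points are libraries and bars are mean and SD (n = 3); the transposable element shares of w knockdown, at 2.60% to 3.16%, lie below those of SetDB1 WT, at 3.31% to 4.66%, and the same order holds for Gcn5 knockdown and SetDB1 F578A.

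The background of repeat names that differed was high. With edgeR's quasi-likelihood test, 530 of the 2257 names tested had an adjusted p under 0.05 (23.5%). Of these, 280 were higher (12.4%) and 250 lower (11.1%) in w knockdown. The 3 libraries of one group lay wholly above or below the other 3 for 972 names (43.1%). Among transposable elements, 27 of 167 were called (16.2%), a share below that of all names. Their calls ran mostly one way: 22 were lower (13.2%, against 11.1% of all names) and 5 higher (2.99%, against 12.4%). The median log2 fold change of transposable elements was −0.48, with 133 of 167 below 0, whereas the median of all names was −0.06. The libraries did not overlap for 51 of the 167 elements (30.5%, against 43.1% of all names). These directions are relative to all repeats, most of whose counts are simple repeats. When the elements were scaled and fitted alone, their median was −0.06, and 14 were called, 7 higher and 7 lower. That scaling itself brings the typical log2 fold change of the elements near 0. This median and this split were thus largely set by the scaling, and they do not test the shift relative to all repeats. Without SetDB1 WT replicate 3, 11 elements were called, 3 higher and 8 lower. Without w knockdown replicate 3 the calls were 13, and without SetDB1 WT replicate 1 they were 17.

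**Figure D2:**
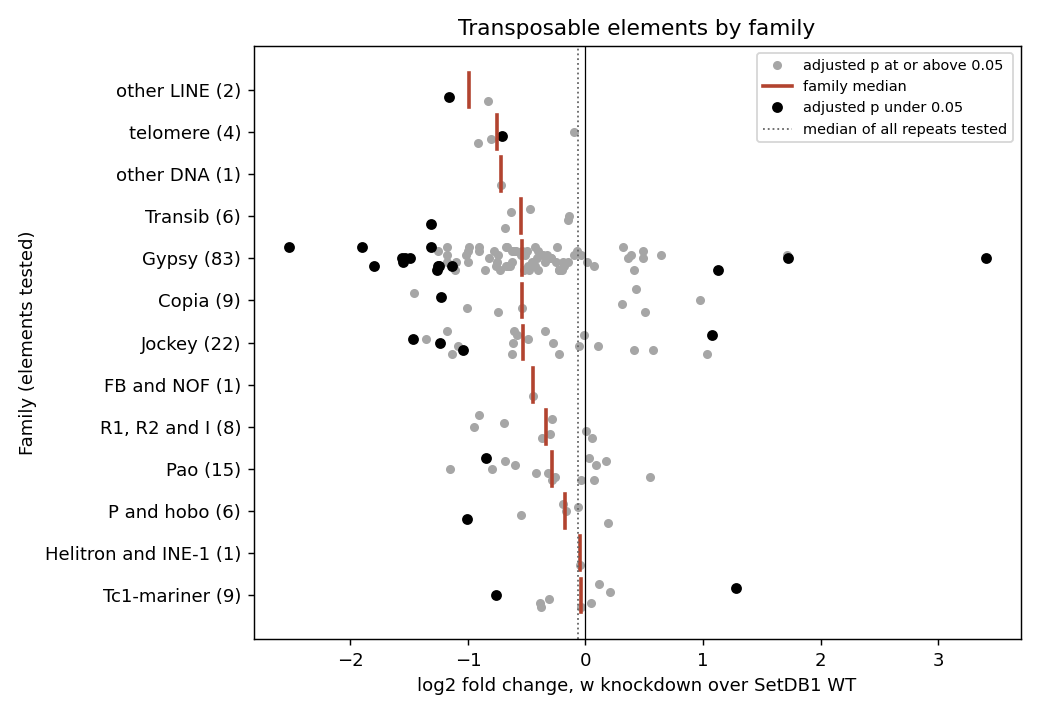
log2 fold changes of the 167 transposable elements tested, w knockdown over SetDB1 WT (x axis), by family (y axis, with the number tested). Each point is a repeat name, black where the adjusted p was under 0.05; red bars mark family medians, which lie between −0.99 and −0.04, and the dotted line marks the median of all repeats tested, −0.06.

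By abundance, both control backgrounds had much the same leading elements. The internal part of roo, a Pao element, ranked first in both groups and took 21.7% ± 7.10 of all transposable element counts in w knockdown and 27.5% ± 3.79 in SetDB1 WT. The internal part of blood, of the Gypsy superfamily, and DNAREP1_DM, the short element INE-1 that lies scattered through the fly genome in many copies, came next in both groups. The 10 most abundant names together held 62.6% ± 3.87 of the element counts in w knockdown and 65.2% ± 3.43 in SetDB1 WT (SD, n = 3 each). Over all 205 names, the mean log2(CPM + 1) of the groups correlated at r = 0.967 (Spearman's rho 0.962), as a description across names that share libraries and annotation. CPM here is relative to the counts on repeats, scaled by TMM. Of the 10 most abundant names, 6 were called lower and 4 were not called, beside 11.1% lower among all names, with a median log2 fold change of −0.78. Of these 6, BLASTOPIA_I-int alone stayed called when elements were scaled and fitted alone (adjusted p = 0.0379).

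Levels per length gave another order. The annotated copies of roo's internal part add up to 1154 kb, so its level was 5.33 CPM per kb in w knockdown and 9.58 CPM per kb in SetDB1 WT. That placed it 16th in w knockdown and 15th in SetDB1 WT by CPM per kb. INE-1, with 1009 kb of annotated sequence, stood at 3.08 CPM per kb in w knockdown and 3.18 CPM per kb in SetDB1 WT. The internal part of blood had 15.8 CPM per kb in w knockdown and 16.9 CPM per kb in SetDB1 WT, and that of DM1731, a Copia element, had 16.5 CPM per kb in w knockdown and 12.3 CPM per kb in SetDB1 WT. Among names with at least 5 kb annotated, Galileo_DM, a DNA element of the P superfamily, was highest in both groups, with 27.0 CPM per kb in w knockdown and 23.6 CPM per kb in SetDB1 WT. These lengths come from the annotated genome and not from the lines studied, whose own copy numbers were not measured.

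The largest change among transposable elements was in the LTR of Quasimodo2, a Gypsy element. QUASIMODO2-LTR_DM had 101, 69.3 and 76.0 CPM in the w knockdown libraries, against 7.46, 6.52 and 9.21 CPM in the SetDB1 WT libraries. All 3 w knockdown libraries lay far above all 3 SetDB1 WT libraries. Its log2 fold change was 3.40 (SE 0.358, adjusted p = 0.000298). Its own internal part, looked up after the values of its LTR were seen, differed by −1.10 on the log2 scale (adjusted p = 0.101).

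Rover, a Gypsy element of the group that carries an env gene, was the element that fell most by log2 fold change. ROVER-I_DM, its internal part, had 23.4, 24.4 and 32.8 CPM in w knockdown, against 152, 146 and 168 CPM in SetDB1 WT. The replicates of each group were close together, and the log2 fold change was −2.53 (SE 0.280, adjusted p = 0.000419). Its LTR did not pass the test, with a log2 fold change of −0.23 (adjusted p = 0.852).

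Besides these, 4 elements were called in every one of the 16 alternative fits. The internal part of Chouto, a Gypsy element, had 94.1, 61.1 and 52.0 CPM in w knockdown, against 24.4, 16 and 22.4 CPM in SetDB1 WT (log2 fold change 1.72, SE 0.362, adjusted p = 0.00754). MDG3_I-int, of another Gypsy element, had 89.3, 158 and 138 CPM in w knockdown, against 507, 265 and 369.9 CPM in SetDB1 WT (log2 fold change −1.56, SE 0.303, adjusted p = 0.0054). The groups did not overlap for either element, but SetDB1 WT ranged more widely for mdg3. FW_DM, the F element, a LINE of the Jockey group, had 63.6, 69.3 and 68.8 CPM in w knockdown, against 239.5, 134 and 184 CPM in SetDB1 WT (log2 fold change −1.46, SE 0.278, adjusted p = 0.00511). The internal part of Nomad, a Gypsy element with an env gene, had 102, 143 and 116 CPM in w knockdown, against 402, 205 and 292 CPM in SetDB1 WT (log2 fold change −1.32, SE 0.284, adjusted p = 0.00851). The 3 elements that were lower showed a wider spread in SetDB1 WT than in w knockdown, with replicate 1 highest and replicate 2 lowest.

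**Figure D3:**
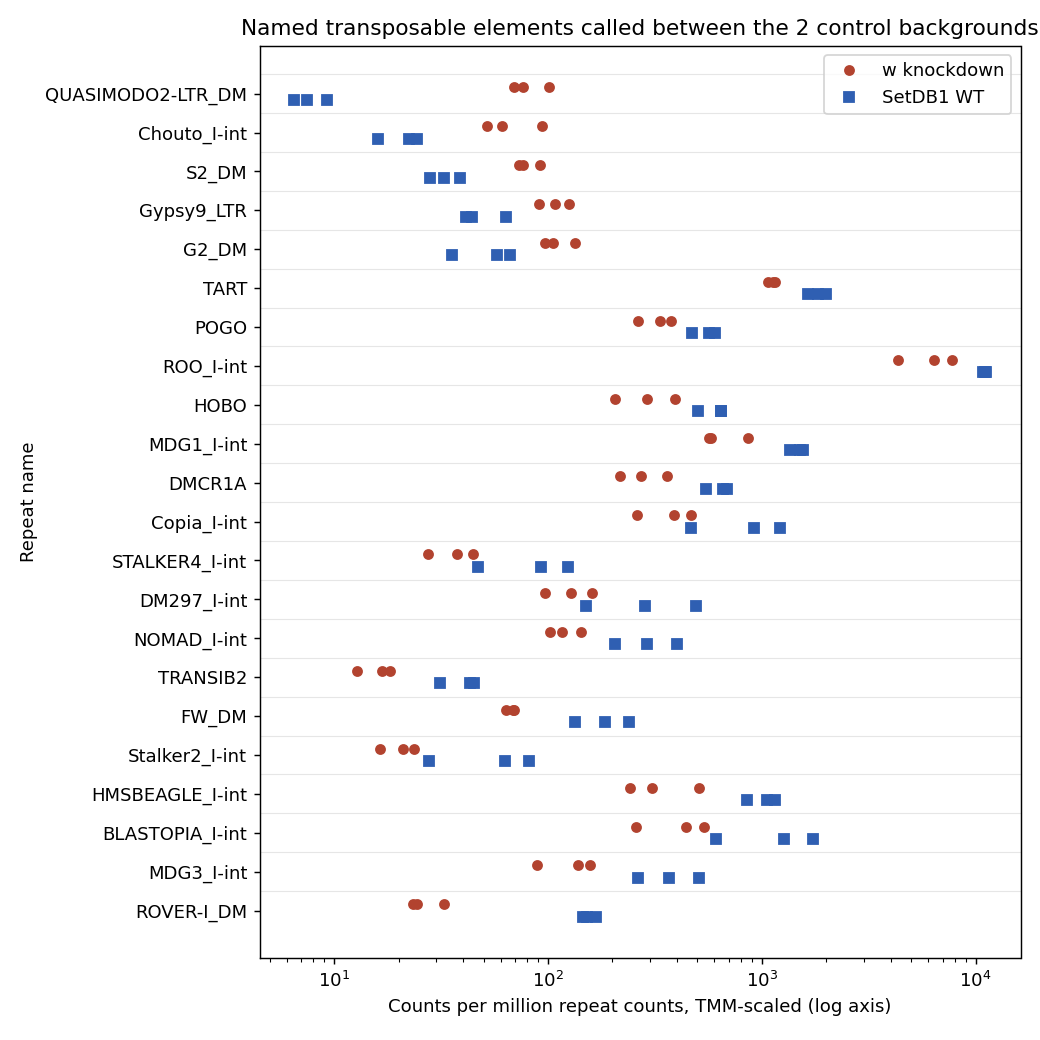
TMM-scaled CPM (log x axis) of the 22 named transposable elements with an adjusted p under 0.05, one row each, ordered by log2 fold change. Circles are w knockdown libraries and squares are SetDB1 WT libraries, 3 each; QUASIMODO2-LTR_DM is at 69.3 to 101 CPM in w knockdown and 6.52 to 9.21 CPM in SetDB1 WT, and ROVER-I_DM is at 23.4 to 32.8 CPM and 146 to 168 CPM.

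Among the Gypsy family, 83 names were tested, of which 12 were lower, 3 higher and 68 did not pass. Calls came to 18.1% of these names, against 23.5% of all names, with 14.5% lower, against 11.1%. HMSBEAGLE_I-int had 511, 241 and 308 CPM in w knockdown, against 857, 1155 and 1054 CPM in SetDB1 WT (log2 fold change −1.53, adjusted p = 0.0045). MDG1_I-int had 865, 577 and 568 CPM in w knockdown, against 1559, 1360.3 and 1505 CPM in SetDB1 WT (log2 fold change −1.14, adjusted p = 0.00511). No library of one group reached the other in either element. Both calls were lost when elements were scaled and fitted alone, where the log2 fold change was −1.12 (adjusted p = 0.148) for HMSBEAGLE_I-int and −0.69 (adjusted p = 0.232) for MDG1_I-int. BLASTOPIA_I-int had 258, 538 and 443 CPM in w knockdown, against 1742, 608 and 1276 CPM in SetDB1 WT (log2 fold change −1.55, adjusted p = 0.0149). Other well-known members did not pass. The log2 fold change of BLOOD_I-int was −0.10 (adjusted p = 0.75), that of Gypsy_I-int was −0.43 (adjusted p = 0.52) and that of DM412 was −0.45 (adjusted p = 0.186, or 0.04 without w knockdown replicate 1). DM412 passed in that 1 of its 16 alternative fits only. With elements scaled and fitted alone, DM412 had 0.01 on the log2 scale (adjusted p = 0.984). Of the panel of Gypsy elements that carry an env gene, such as Gypsy, ZAM, Idefix and Tirant, 19 of 20 names were tested and 3 were called, all lower, beside 23.5% called and 11.1% lower among all names.

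Roo, the most abundant element, was lower in w knockdown. ROO_I-int had 7751, 4350.5 and 6361 CPM in w knockdown, against 11172, 10881 and 11114 CPM in SetDB1 WT. The SetDB1 WT libraries were nearly level and the w knockdown libraries all lay below them (log2 fold change −0.85, SE 0.211, adjusted p = 0.017). With elements scaled and fitted alone, ROO_I-int had −0.41 on the log2 scale and was not called (adjusted p = 0.561). It was the 1 call among 15 Pao names tested (6.67%, against 23.5% of all names). In the Copia family 1 of 9 tested names was called (11.1%, against 23.5% of all names). This was Copia_I-int, with 259.9, 464 and 389 CPM in w knockdown, against 1215, 468 and 916 CPM in SetDB1 WT (log2 fold change −1.23, adjusted p = 0.0261). Scaled with elements alone, Copia_I-int had −0.77 and was not called (adjusted p = 0.0853). DM1731_I-int varied more between embryos of a group than between groups, with 725, 2408 and 2011 CPM in w knockdown and 1885, 659 and 1273 CPM in SetDB1 WT (log2 fold change 0.43, adjusted p = 0.52).

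All 4 telomere names had negative log2 fold changes and 1 passed the test (25.0%, against 23.5% of all names). TART had 1156, 1073 and 1124 CPM in w knockdown, against 1644, 2002 and 1835 CPM in SetDB1 WT (log2 fold change −0.71, SE 0.174, adjusted p = 0.0155). With elements scaled and fitted alone, TART had −0.35 on the log2 scale and was not called (adjusted p = 0.567). HETA had 103, 59.1 and 43.2 CPM in w knockdown, against 119, 149.9 and 118 CPM in SetDB1 WT, which did not overlap but missed the threshold (log2 fold change −0.92, adjusted p = 0.0733, or 0.0158 without w knockdown replicate 1). TAHRE had 43.8, 46.9 and 47.2 CPM in w knockdown, against 71.3, 92.6 and 76.5 CPM in SetDB1 WT (log2 fold change −0.80, adjusted p = 0.0593). With DESeq2 the adjusted p was 0.0395 for HETA and 0.0364 for TAHRE. Of 16 alternative fits, HETA passed in 2 and TAHRE in 1. With elements scaled and fitted alone, the adjusted p was 0.526 for HETA and 0.394 for TAHRE. TART_B1 overlapped between groups (log2 fold change −0.10, adjusted p = 0.877, and 0.29 when elements were scaled alone). The family median of −0.76 stayed below 0 under each scaling and was −0.41 with elements scaled alone. Scaling with elements alone raised the median of the 167 elements from −0.48 to −0.04, so a family far below that median stays negative.

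Of the other LINEs, the Jockey family had 22 names tested, 3 lower and 1 higher, so that 18.2% were called, against 23.5% of all names. G2_DM, the 1 that was higher, had 106, 96.8 and 134 CPM in w knockdown, against 66.7, 35.5 and 57.6 CPM in SetDB1 WT (log2 fold change 1.08, adjusted p = 0.0308). DMCR1A, a LINE of the CR1 type, had 217, 359.6 and 271 CPM in w knockdown, against 691, 549.8 and 656 CPM in SetDB1 WT (log2 fold change −1.16, adjusted p = 0.00631, or 0.074 with elements scaled alone). The 8 names of the R1, R2 and I group, which includes the elements that insert into ribosomal DNA, did not pass, with log2 fold changes from −0.95 to 0.05. R2_DM differed by 0.05 on the log2 scale (adjusted p = 0.896), and I_DM by −0.69 (adjusted p = 0.136).

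Of 23 DNA elements tested, 1 was called higher and 3 lower (17.4%, against 23.5% of all names). S2_DM, a Tc1-mariner element, had 72.9, 91.7 and 76.8 CPM in w knockdown, against 32.7, 28 and 38.8 CPM in SetDB1 WT (log2 fold change 1.28, SE 0.297, adjusted p = 0.0118). HOBO, a transposon of the hAT superfamily, had 206, 391 and 292 CPM in w knockdown, against 641, 504 and 647 CPM in SetDB1 WT (log2 fold change −1.01, adjusted p = 0.0183). POGO, of the Tc1-mariner family, differed by −0.76 on the log2 scale (adjusted p = 0.0286), and TRANSIB2 by −1.32 (adjusted p = 0.0284). With elements scaled and fitted alone, HOBO had −0.65 (adjusted p = 0.149), POGO −0.38 (adjusted p = 0.561) and TRANSIB2 −0.92 (adjusted p = 0.0505) on the log2 scale, and these calls were lost. INE-1 was level, with 2684, 3308 and 3327 CPM in w knockdown and 3851, 2614 and 3174 CPM in SetDB1 WT (log2 fold change −0.05, adjusted p = 0.883). The medians of the DNA, Pao, Tc1-mariner, P and hobo, and R1, R2 and I groups, at −0.31, −0.29, −0.04, −0.18 and −0.34, turned positive when elements were scaled alone, at 0.16, 0.16, 0.32, 0.24 and 0.07. That scaling raised the median of the 167 elements from −0.48 to −0.04. The sign of a group under it thus mostly restates the place of the group among all elements.

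Of the 27 calls, 22 were of elements named by a rule on p-value, by their abundance or by a panel of well-known elements. Among those not yet described, the log2 fold change was −1.26 for DM297_I-int (adjusted p = 0.0388), −1.26 for STALKER4_I-int (adjusted p = 0.0398) and −1.49 for Stalker2_I-int (adjusted p = 0.0307), and Gypsy9_LTR was higher by 1.12 on the log2 scale (adjusted p = 0.0203). With elements scaled and fitted alone, 11 of the 22 were called, and the adjusted p was 0.0949 for DM297_I-int and 0.074 for STALKER4_I-int. Of the 22, 13 lost the call in at least 1 of the 6 fits without a library. Without SetDB1 WT replicate 3 the adjusted p was 0.0517 for S2_DM, 0.108 for G2_DM, 0.0931 for TART, 0.0601 for ROO_I-int, 0.0702 for DM297_I-int, 0.122 for STALKER4_I-int, 0.109 for Stalker2_I-int, 0.0654 for Copia_I-int, 0.075 for HOBO, 0.153 for POGO and 0.151 for TRANSIB2. Without w knockdown replicate 3 it was 0.0662 for G2_DM, 0.0618 for BLASTOPIA_I-int, 0.0757 for TART, 0.056 for ROO_I-int, 0.13 for DM297_I-int, 0.0771 for STALKER4_I-int, 0.075 for Stalker2_I-int, 0.0947 for Copia_I-int, 0.0913 for HOBO, 0.149 for POGO and 0.0793 for TRANSIB2. Without SetDB1 WT replicate 1 it was 0.0665 for Gypsy9_LTR, 0.152 for DM297_I-int, 0.143 for STALKER4_I-int, 0.114 for Stalker2_I-int, 0.0896 for Copia_I-int and 0.0744 for TRANSIB2. Without SetDB1 WT replicate 2 it was 0.0603 for G2_DM, 0.133 for TART, 0.0603 for ROO_I-int and 0.124 for POGO. Without w knockdown replicate 1 it was 0.121 for DM297_I-int, 0.113 for STALKER4_I-int, 0.0854 for Stalker2_I-int, 0.0859 for Copia_I-int and 0.0665 for TRANSIB2, and without w knockdown replicate 2 it was 0.0794 for STALKER4_I-int and 0.0647 for Stalker2_I-int. The 5 called elements outside the rule, chosen after their values were seen, were TRANSPAC_I-int, Invader4_LTR, G6_DM, Gypsy6_I-int and BS2, all lower, with log2 fold changes from −1.90 to −1.04. With elements scaled and fitted alone, TRANSPAC_I-int kept the call (adjusted p = 0.0281). The adjusted p was then 0.0621 for Invader4_LTR, 0.0621 for G6_DM, 0.0961 for Gypsy6_I-int and 0.104 for BS2.

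Many elements had the same library highest or lowest in its group. Of the 167 elements tested, SetDB1 WT replicate 1 was the highest of its group for 135 and SetDB1 WT replicate 2 the lowest for 135. In w knockdown, replicate 1 was the lowest for 107 and replicate 2 the highest for 86. These ranks in part restate the share of counts on elements. That share was highest in SetDB1 WT replicate 1 (4.66%) and lowest in replicate 2 (3.31%). In w knockdown it was lowest in replicate 1 (2.60%) and highest in replicate 3 (3.16%). No such ranks were counted over all names.

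Internal parts of LTR elements, which encode the proteins, and the LTRs that flank them were listed as separate names. Of the internal parts, 63 were tested, 13 were lower (20.6%, against 11.1% of all names) and 1 was higher (1.59%, against 12.4%), with a median log2 fold change of −0.68. Of the LTRs, 44 were tested, 1 was lower (2.27%) and 2 were higher (4.55%), with a median of −0.27. For 37 elements both parts were tested. In these, 11 internal parts and 3 LTRs were called, and no element had a call for both. Counts of LTRs ranged widely. ROVER-LTR_DM had 3, 13 and 11 counts in w knockdown and 14, 7 and 16 in SetDB1 WT (SE 0.702). BLASTOPIA_LTR had 275, 171 and 196 counts in w knockdown and 313, 283 and 327 in SetDB1 WT (SE 0.282). With few counts a change is harder to call, and a difference between the 2 parts was not tested. Both parts had the same sign in 31 of the 37. A read from an LTR can come from the full element or from a lone LTR, and the tables do not separate them.

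**Figure D4:**
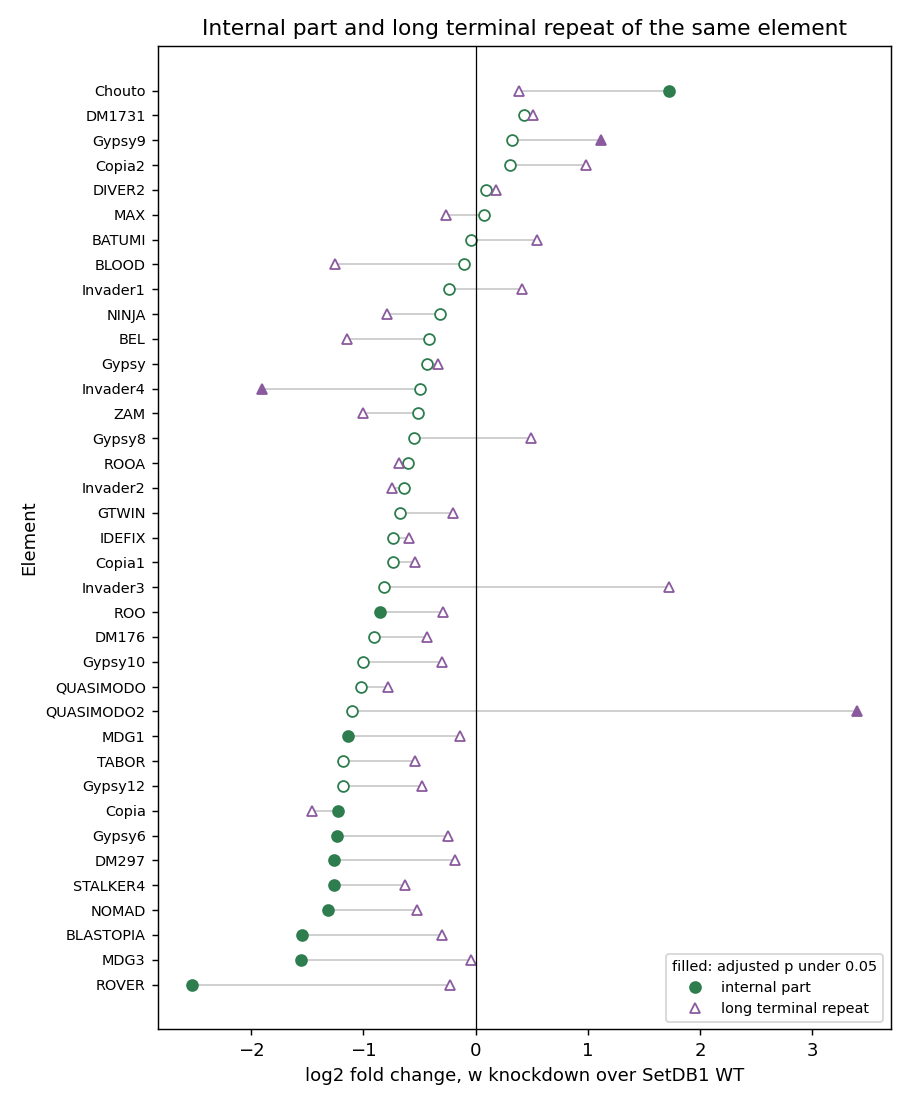
log2 fold changes, w knockdown over SetDB1 WT (x axis), of the internal part (circles) and the long terminal repeat (triangles) of the 37 elements with both tested, one row each. Filled symbols have an adjusted p under 0.05; QUASIMODO2 stands out with −1.10 for the internal part and 3.40 for the LTR.

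Outside transposable elements, 272 of the 2071 simple repeats tested were higher and 226 lower (24.0%, close to the 23.5% of all names). Triplet and dinucleotide motifs made up the 10 most abundant, led by (CAG)n with 48747 ± 6296 CPM in w knockdown and 64709.8 ± 4238 CPM in SetDB1 WT (log2 fold change −0.41, adjusted p = 0.077). The annotation lists rotations and complements of a motif under names of their own. In 109 motif classes at least 2 names were called, and in 56 of these the calls went both ways. The 10 names of smallest p had between 32 and 1076 annotated bases, and the median of simple repeats that were not called was 322 bases. (AGATCC)n, with 70 bases in all, had 442, 341 and 409 CPM in w knockdown, against 8.70, 10.8 and 12.8 CPM in SetDB1 WT (log2 fold change 5.20, adjusted p = 5.42e-06). Its motif stood under 11 names, of which 9 were tested, 2 were higher and the rest did not pass. (TCCGA)n, with 1076 annotated bases, had 726, 593 and 511 CPM in w knockdown, against 33.6, 57.4 and 50.8 CPM in SetDB1 WT (log2 fold change 3.69, adjusted p = 4.98e-05). (GCTTTG)n was higher by 5.81 on the log2 scale (adjusted p = 0.000103), and (TATCGC)n, with 32 annotated bases, by 3.37 (adjusted p = 0.000238). A repeat of a 9-base unit with 52 annotated bases was higher as well, by 3.71 on the log2 scale (adjusted p = 2.67e-05). In the other direction, (CTCCTC)n had 335, 290.3 and 296 CPM in w knockdown, against 1149.5, 1117 and 1146 CPM in SetDB1 WT (log2 fold change −1.89, adjusted p = 0.000292), and of the 9 tested names of its CTC motif 2 were higher and 1 lower. The log2 fold change was −2.64 for (CAGATT)n (adjusted p = 0.000539), −2.44 for (CACGCT)n (adjusted p = 0.00067), −2.17 for (CTCTGC)n (adjusted p = 0.000693) and −2.28 for (TTTAGAT)n (adjusted p = 0.000693). These 10 names were called in each of their 14 alternative fits.

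Among the satellites, 1 of 4 tested was called (25.0%, against 23.5% of all names). SAR2_DM, looked up after its call was seen, had 43.3, 85.1 and 107 CPM in w knockdown, against 356, 254 and 347 CPM in SetDB1 WT (log2 fold change −2.02, adjusted p = 0.00323). SAR_DM did not pass (log2 fold change −0.18, adjusted p = 0.819). DMSAT6 (log2 fold change −0.99, adjusted p = 0.184) and HETRP_DM (log2 fold change −0.67, adjusted p = 0.368), also looked up afterwards, did not pass either. The name (AATAT)n, counted here among the simple repeats, was not called (log2 fold change 0.15, adjusted p = 0.758). LSU-rRNA_Dme had 30112, 50571 and 9550.2 CPM in w knockdown, against 13365, 7953 and 6292 CPM in SetDB1 WT. The groups overlapped, and the log2 fold change was 1.71 (adjusted p = 0.0292, or 0.0969 without w knockdown replicate 2 and 0.0776 without SetDB1 WT replicate 3). The log2 fold change of SSU-rRNA_Dme was 1.31 (adjusted p = 0.0514).

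Whether these differences recur in other embryos of related backgrounds was examined in Gcn5 knockdown against SetDB1 F578A, which share no library with the 2 control groups. The Gcn5 knockdown, the F578A mutation and the CyO balancer are added to the backgrounds there. Of 2289 names tested, 690 were called (30.1%), 326 higher (14.2%) and 364 lower (15.9%) in Gcn5 knockdown. Of the 2174 names tested in both comparisons, 387 were called in both, which is 75.1% of the calls in w knockdown against SetDB1 WT and 58.3% of those in Gcn5 knockdown against SetDB1 F578A. All 387 had the same direction, 209 higher and 178 lower, and of all 2174 names 1825 had the same sign in both (83.9%). Among transposable elements tested in both, 22 were called in both, or 81.5% of the 27 and 41.5% of the 53 calls. Each had the same direction in both, 4 higher and 18 lower, and of all 164 elements 138 had the same sign (84.1%). Over the names tested in both, log2 fold changes correlated at r = 0.841 (Spearman's rho 0.848), and over the 164 elements at r = 0.687 (rho 0.606), as descriptions across names. Over all 12 libraries, the 6 knockdown libraries lay wholly apart from the 6 SetDB1 F578A and SetDB1 WT libraries for 540 of the 2257 names (23.9%) and for 25 of the 167 elements tested, counts added after the data were seen. The 27 called elements, 20 of which lay apart in this way, were chosen on 6 of the same 12 libraries.

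**Figure D5:**
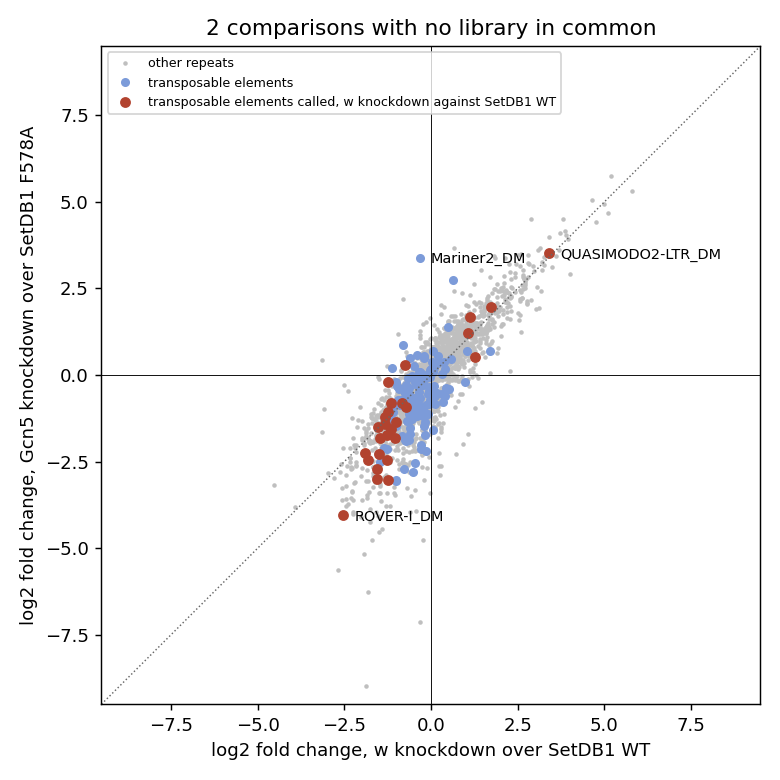
log2 fold change of each repeat tested in both comparisons, w knockdown over SetDB1 WT (x axis) and Gcn5 knockdown over SetDB1 F578A (y axis). Grey dots are other repeats, blue points transposable elements and red points elements called in the first comparison; most lie near the dotted diagonal (r = 0.841), and Mariner2_DM lies off it at −0.31 and 3.38.

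QUASIMODO2-LTR_DM had 76.2, 92.2 and 193 CPM in Gcn5 knockdown, against 12, 8.06 and 11.3 CPM in SetDB1 F578A (log2 fold change 3.52, adjusted p = 0.000225). ROVER-I_DM had 125, 44.5 and 61.7 CPM in Gcn5 knockdown, against 1131, 1325 and 1373 CPM in SetDB1 F578A (log2 fold change −4.04, adjusted p = 9.2e-06). ROO_I-int differed by −0.81 (adjusted p = 0.00483) and TART by −0.91 (adjusted p = 0.00853). DM412, not called between the controls, had 80.9, 92.2 and 210.4 CPM in Gcn5 knockdown, against 816, 708 and 679 CPM in SetDB1 F578A (log2 fold change −2.52, adjusted p = 0.000244), and the difference between its 2 fold changes had an adjusted p of 0.125. POGO and S2_DM, called between the controls, had log2 fold changes of 0.28 (adjusted p = 0.481) and 0.52 (adjusted p = 0.42) here, and their interactions had adjusted p-values of 0.707 and 0.997. Tested over all 12 libraries, the difference between the 2 comparisons was called for 1 of 2458 names (0.0407%) with edgeR, Mariner2_DM, a Tc1-mariner element, with 134 names at an unadjusted p under 0.05.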

How the data were processed

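The deposited tables give whole-number counts per repeat name, 1 table per RNA library, from alignments to repeats, per the file headers; they were used as deposited. featureCounts 1.6.5 and the build dm6 are listed in the submitters' processing notes, with no role given there. The repeat annotation, the strand setting and the handling of reads that map to several copies are not given in the sources used here. Names were sorted into classes by a hand-written list.

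Names with low counts were removed (filterByExpr, minimum count 10). Libraries were scaled by TMM, and groups were compared with edgeR 4.0.16 (quasi-likelihood test, R 4.3.3) with Benjamini-Hochberg adjustment over all names and a threshold of 0.05, separately for each pair of groups. CPM values of the pairs are scaled separately. Difference tests between the pairs used all 12 libraries. Shares were compared by exact permutation. The scripts were tested on simulated data.

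Named repeats were, among calls, the 10 transposable elements and 5 other repeats of smallest p in each direction, a fixed panel of 90 well-known names, and the 10 most abundant elements. The members and lists were chosen with earlier results of these data known. DESeq2 1.42.0 and other scalings, filters and left-out libraries were tried as alternatives.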

Additional observations from a re-analysis of the deposited data

Results flagged for a closer look

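Mariner2_DM was singled out because its fold change differed between the comparisons when the difference itself was tested. It had 18.1, 22.4 and 16 CPM in w knockdown, against 35.2, 15.0 and 20 CPM in SetDB1 WT (log2 fold change −0.31, adjusted p = 0.661). In the other pair it had 215, 250.1 and 306 CPM in Gcn5 knockdown, against 32.4, 24.5 and 16.9 CPM in SetDB1 F578A (log2 fold change 3.38, adjusted p = 4.28e-05). The difference of the log2 fold changes was −3.69 (SE 0.516, adjusted p = 0.00541 with edgeR), and it was past the threshold in each alternative run, with values from −3.92 to −3.26 and adjusted p-values from 2.93e-09 to 0.0398.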

How the results depend on the processing

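Of 1486 values of the 96 named repeats tested under the alternatives, 1398 kept their side of the threshold, 76 lost the call and 12 gained it. No call changed sign. The 1398 include names called in neither fit whose sign changed, such as TART_B1, at −0.10 and, with elements scaled alone, 0.29. Between the control groups the other scalings, filters, tools and the 12-library fit gave 499 to 668 calls, and DESeq2's 668 held 528 of the 530. With elements scaled and fitted alone, 14 were called, 7 of them lower, with a median of −0.0562, which that scaling itself brings near 0. Fitted alone but scaled by all repeats, an alternative chosen after seeing the data, 14 were called, 3 higher and 11 lower. Leaving out 1 library gave 271 to 514 calls (156 to 284 higher, 115 to 243 lower), with 271 without SetDB1 WT replicate 3 and 152 lower without w knockdown replicate 3. For transposable elements these fits gave 11 to 23 calls (3 to 6 higher, 8 to 17 lower), a median of −0.59 to −0.23 and a share difference of −1.41 to −0.734 percentage points. The share difference was −0.974 points without ribosomal RNA names and −9.84 points without simple repeats in the total. Of repeats called, Gcn5 knockdown against SetDB1 F578A gave 389 to 816, with 434 without SetDB1 F578A replicate 1 and 389 without replicate 2. The difference between the comparisons was called for 6 names with DESeq2, 8 without a filter and 1 to 2 without 1 library, 2 without Gcn5 knockdown replicate 1 or 3 or SetDB1 F578A replicate 3. Causes were not tested.

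With the replicate number as a block, 311 names were called, 170 higher and 141 lower, and 12 transposable elements, 2 higher and 10 lower. Same-numbered libraries did not deviate together (correlations −0.53, −0.35 and −0.08), so the numbers were not taken as a pairing. Of the 9263 names, 5097 had a count in the control libraries and 2257 passed the filter, and no fit varied the total counts on repeats.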
